A study of Mus musculus with 24 samples.

Results

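Whole livers of mice lacking NEMO in hepatocytes were set directly against whole livers of mice lacking KEAP1 in hepatocytes. The comparison took the liver arrays whose titles name one of these deletions alone, 3 arrays of each and 6 of the 24 arrays in the study. All animals were 8-week-old males. NEMO knockouts (NEMOΔhepa) carried floxed NEMO and KEAP1 knockouts (KEAP1Δhepa) floxed KEAP1, and both carried the Alfp-Cre transgene, whose albumin and alpha-fetoprotein promoter elements act in liver parenchymal cells. Immune, stellate and endothelial cells of these livers keep both genes. The study also holds livers of double knockouts and of controls (NEMOf/f), and primary hepatocytes of the same 4 genotypes, which were released with collagenase and cultured until the next day. Each group had 3 arrays, and each array was labelled as a sample from a mouse. No KEAP1-floxed control group was among the samples.

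Ikbkg encodes NEMO, the scaffold without which the IKK kinases cannot free NF-kB to enter the nucleus and switch on survival and inflammatory genes. Mice without it in hepatocytes are known for hepatocyte death, compensatory division, fatty change and fibrosis. KEAP1 hands NRF2, a transcription factor made from Nfe2l2, to the proteasome, and without KEAP1 hepatocytes carry high NRF2 activity and high levels of antioxidant and detoxifying enzymes.

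All values are the authors' log2 RMA intensities, and differences are NEMO knockout minus KEAP1 knockout with the standard error of the limma fit (n = 3 arrays per group). A gene was called at a Benjamini-Hochberg adjusted p under 0.05 over all 18820 genes. The medians of the 6 arrays lay between 4.14 and 4.19, so a level near or below 4 is a dim signal and a fold that starts there is understated. Outside this comparison, a liver control and a liver double knockout stood apart from their groups. Liver control 3 carried NRF2 target levels like those of the KEAP1 and double knockouts. The mean of these targets was 10.22 there, 10.02 to 10.06 in KEAP1 and 10.22 to 10.25 in double knockouts. Its mean of mitosis genes, 4.98, lay with the double knockouts (4.87 to 5.37) and above the KEAP1 knockouts (3.92 to 4.13). Liver double knockout 3 carried fat cell transcripts (Retn at 8.87, against 2.88 and 3.10 on double knockouts 1 and 2). Neither was among the 6 arrays tested.

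The deleted genes were read first. Ikbkg measured 6.26, 6.25 and 6.14 in NEMO knockout livers and 6.96, 7.20 and 7.14 in KEAP1 knockout livers. The groups did not overlap, and Ikbkg was lower in NEMO knockout livers by -0.88 ± 0.10 (adjusted p = 0.00176). Keap1 measured 6.11, 5.81 and 6.16 in NEMO knockout livers and 5.47, 5.38 and 5.76 in KEAP1 knockout livers. Its arrays did not overlap either, but the difference of 0.49 ± 0.14 did not pass the test (adjusted p = 0.0921). The sources used here do not say whether these probes fall inside the removed exons, so both genes are a weak check of the labels. Nfe2l2, the transcript of NRF2 itself, was at 9.56, 9.40 and 9.61 without NEMO and at 8.43, 8.47 and 8.34 without KEAP1. It was 2.16-fold higher in NEMO knockout livers (1.11 ± 0.08, adjusted p = 0.000231), while the transcripts of most NRF2 targets were lower there.

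Of 18820 genes, 1136 were called, which is 6.04%. A set of 629 genes (3.34%) was higher in NEMO knockout livers and 507 (2.69%) were higher in KEAP1 knockout livers. On all 1136 called genes the 3 arrays of one genotype lay wholly above the 3 of the other, as they did on 24.7% of all genes. The higher genes had a median difference of 0.83 and reached 4.98. The lower genes had a median of 0.69 in size and reached -6.16. Differences of at least 2 were found for 46 higher and 28 lower genes. When each array was centred on its median, the median difference over all genes went from -0.01 to -0.105. The split became 446 higher and 710 lower. The count fell to 601 without KEAP1 knockout 1, 590 without KEAP1 knockout 2 and 633 without NEMO knockout 3. In RNA of whole liver, fewer cells of a type and less RNA per cell cannot be told apart.

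**Figure D1:**
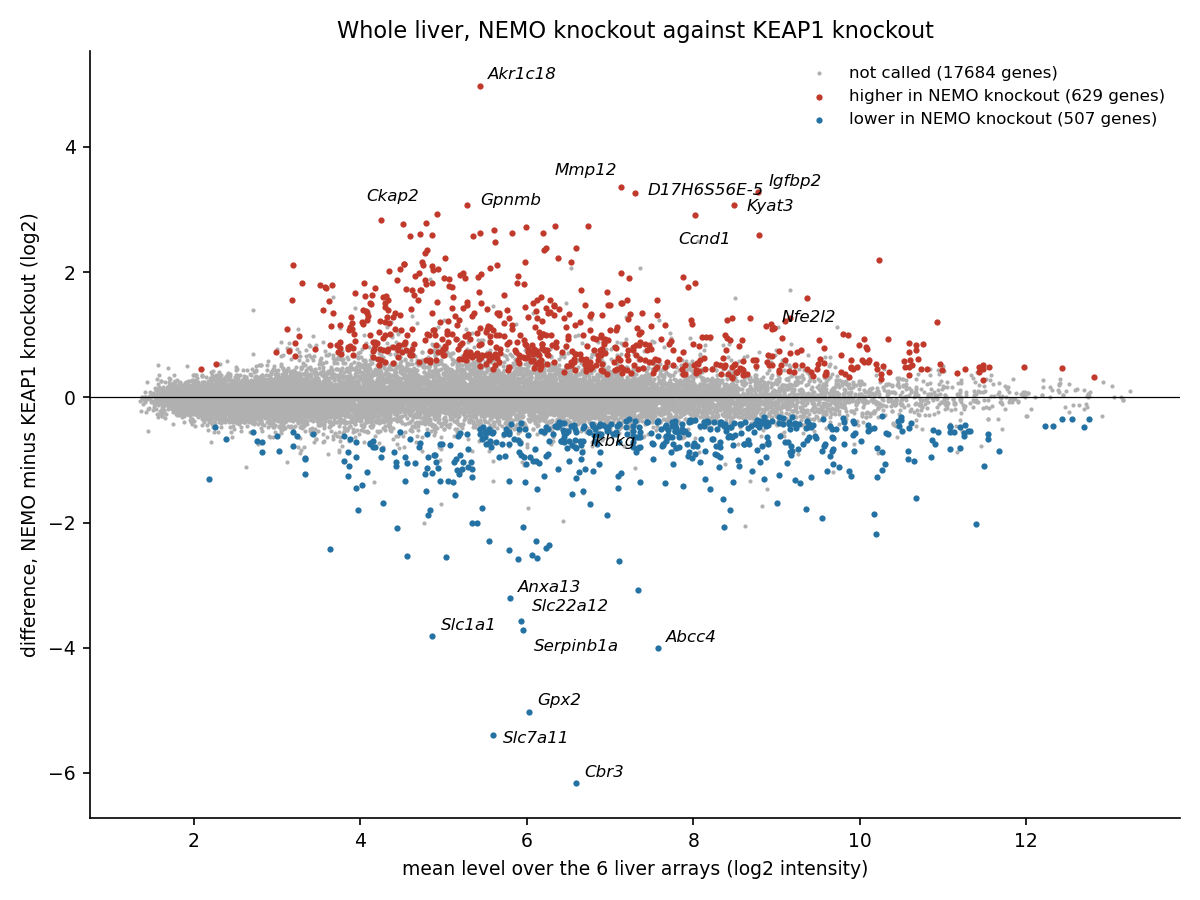
Each point is a gene, with its mean log2 intensity over the 6 liver arrays on the x axis and its log2 difference, NEMO minus KEAP1 knockout, on the y axis. Red marks the 629 genes called higher and blue the 507 called lower in NEMO knockout livers, and grey the rest. Cbr3 at -6.16 and Akr1c18 at 4.98 are the extremes.

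The deepest differences were among NRF2 targets, all on the side of the KEAP1 knockout. Of 35 measured NRF2 targets, 26 were lower in NEMO than in KEAP1 knockout livers and 0 were higher, against 2.69% and 3.34% of all genes. Their median difference was -0.86, against -0.01 over all genes, and 33 of 35 lay below 0. The list was put together with earlier results of these arrays known, so its count is a description.

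Cbr3, a carbonyl reductase, measured 3.82, 3.40 and 3.30 in NEMO knockout livers and 9.57, 9.85 and 9.57 in KEAP1 knockout livers. This was a 71.4-fold difference (-6.16 ± 0.15, adjusted p = 2.97e-07). Slc7a11, the cystine importer that feeds glutathione synthesis, was at 3.15, 2.83 and 2.70 against 7.82, 8.53 and 8.50. It differed by -5.39 ± 0.21 (adjusted p = 5.87e-06). For both genes controls 1 and 2 sat with the NEMO knockouts, at 3.19 and 2.92 for Cbr3 and at 2.63 and 2.42 for Slc7a11. Control 3 was at 9.76 for Cbr3, within the KEAP1 knockout range, and at 9.29 for Slc7a11, above it. The double knockouts were also at the KEAP1 knockout level or above it, between 9.55 and 9.94 for Cbr3 and between 9.62 and 10.23 for Slc7a11.

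Gpx2, a glutathione peroxidase, measured 3.23, 3.82 and 3.51 without NEMO and 8.68, 8.16 and 8.77 without KEAP1 (-5.02 ± 0.20, adjusted p = 5.87e-06). Controls 1 and 2 were lower than every NEMO knockout, at 2.32 and 2.30. Nqo1, the quinone reductase used as the standard NRF2 readout, measured 5.95, 5.84 and 5.58 against 9.01, 9.0 and 8.60. Its difference was -3.08 ± 0.14 (adjusted p = 1.38e-05), with controls 1 and 2 at 4.71 and 5.37. Srxn1, which repairs oxidised peroxiredoxins, was at 7.75, 7.60 and 7.89 against 8.80, 8.89 and 8.92 (-1.12 ± 0.09, adjusted p = 0.000363). Here the NEMO knockouts lay about midway, above controls 1 and 2 at 6.56 and 6.65 and below the KEAP1 knockouts. Cyp2a5, a cytochrome P450 that oxidises coumarin, was bright in both groups, at 10.61, 10.60 and 9.95 against 12.41, 12.45 and 12.35 (-2.02 ± 0.16, adjusted p = 0.000278).

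Not every listed target took part. Hmox1, the inducible haem oxygenase, measured 8.28, 8.18 and 8.12 in NEMO knockout livers and 7.65, 7.30 and 8.48 in KEAP1 knockout livers. The groups overlapped through KEAP1 knockout 3, and the difference of 0.38 ± 0.25 did not pass the test (adjusted p = 0.465). Gstp1 (-0.24 ± 0.08, adjusted p = 0.117) and Gstm2 (-0.32 ± 0.09, adjusted p = 0.0825) were not called either. These 3 genes were picked out after their values were seen. With any 1 of the 6 arrays left out 0 targets were higher, except for 1 without KEAP1 knockout 3. The count of lower NRF2 targets was 23 to 25 in these fits. It was 8 when all 12 liver arrays shared an estimate of the spread, and 23 when control 3 and double knockout 3 were taken out of that fit, an alternative added after the data were seen.

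NRF2 binds with small Maf proteins to antioxidant response elements, whose core is TGACNNNGC. RefSeq promoter windows (GRCm38.p6) were searched over the 250 bases before the start, on both strands. The core was present in 5 of the 22 called NRF2 targets that have a window (22.7%), and in 12.7% of the 14749 measured genes with one. Many known elements lie further upstream and would not be seen here. A match is a run of letters and not a shown binding site. Among windows with the core, those of Abcc4, which was called, and Gsta3, which was not, are not printed. The 4 windows below were chosen after values were seen, because they hold the core and belong to called genes of glutathione, thioredoxin and conjugate handling. They run 5′ to 3′ on the strand of the gene, with the core in capitals. They lie at chr3:122245397-122245456 (Gclm, plus strand), chr10:82859088-82859147 (Txnrd1, plus), chr19:43782184-43782243 (Abcc2, plus) and chr5:65435941-65436000 (Ugdh, minus).
Gclm: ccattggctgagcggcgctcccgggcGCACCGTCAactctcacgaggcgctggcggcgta
Txnrd1: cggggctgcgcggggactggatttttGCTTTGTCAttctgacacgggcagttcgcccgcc
Abcc2: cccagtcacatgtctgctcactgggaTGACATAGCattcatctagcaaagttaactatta
Ugdh: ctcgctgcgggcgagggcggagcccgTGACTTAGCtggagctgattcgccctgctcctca
Gclm and Txnrd1 carry the core on the opposite strand. Gclm, the modifier subunit of glutamate-cysteine ligase, was at 10.10, 10.05 and 9.94 without NEMO and 10.58, 10.68 and 10.52 without KEAP1 (-0.57 ± 0.08, adjusted p = 0.00424). Txnrd1, thioredoxin reductase, was at 8.64, 8.68 and 8.93 against 9.59, 9.67 and 9.56 (-0.86 ± 0.09, adjusted p = 0.00138). In all 4 genes, the KEAP1 knockouts lay above every NEMO knockout, as in all 507 genes called lower and in 12.4% of all genes. All 4 were taken from the called genes, so this was not a test of the element.

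The enzymes around glutathione and NADPH lay on the same side. Of 19 glutathione and thioredoxin genes, 10 were lower in NEMO knockout livers and 0 higher, with a median of -0.44. Some of these, Slc7a11 and Gpx2 among them, are also counted in the NRF2 target list. Gclc, the catalytic subunit of glutamate-cysteine ligase, was at 10.90, 10.96 and 10.97 against 11.94, 12.13 and 12.03 (-1.09 ± 0.08, adjusted p = 0.000132). Of 11 genes of the pentose phosphate pathway and NADPH supply, 4 were lower and 0 higher. Pgd, which makes NADPH from 6-phosphogluconate, was at 8.30, 8.33 and 8.59 against 9.58, 9.86 and 9.50 (-1.24 ± 0.12, adjusted p = 0.000576). Me1 (-0.95 ± 0.15), malic enzyme, and Tkt (-0.75 ± 0.09), transketolase, followed. Taldo1 (-0.40 ± 0.09, adjusted p = 0.0394) lost its call in 5 of the 6 fits that left out an array (adjusted p up to 0.137).

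Efflux pumps lay mostly on the same side, and some of them, Abcc2 and Abcc4 among them, are also counted in the NRF2 target list. Of 13 measured, 7 were lower in NEMO knockout livers and 1, Abcb4, the phospholipid pump of bile, was higher, with a median of -0.55. Abcc4, which exports conjugates into blood, was at 5.90, 5.56 and 5.27 against 9.49, 9.96 and 9.27, a 16-fold difference (-4.0 ± 0.20, adjusted p = 1.77e-05). Abcc3, with a like role, differed by -1.16 ± 0.15 (adjusted p = 0.00252). Abcg5 and Abcg8, which together send sterols into bile, both lay on the KEAP1 side. Abcg8 was at 8.17, 7.68 and 6.77 against 9.58, 9.31 and 9.13 (-1.80 ± 0.30, adjusted p = 0.00896), and Abcg5 differed by -1.31 ± 0.22 (adjusted p = 0.00978). Controls 1 and 2 lay near the NEMO knockouts for Abcg5, at 8.34 and 8.64.

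The 15 largest differences on the KEAP1 side also included transporters and signalling genes that are seldom counted as liver genes. Slc1a1, a glutamate and cysteine transporter, was at 3.10, 2.88 and 2.88 without NEMO and 7.09, 6.82 and 6.38 without KEAP1 (-3.81 ± 0.19, adjusted p = 1.67e-05). Serpinb1a, an inhibitor of neutrophil proteases, was at 4.25, 4.58 and 3.44 against 8.15, 8.11 and 7.18 (-3.72 ± 0.32, adjusted p = 0.000419). Slc22a12, a urate transporter, differed by -3.58 ± 0.20 and Anxa13, an annexin of epithelia, by -3.21 ± 0.17. Osbpl3, Plekhb1, Nrxn2, Gucy2c, Acpp and Spatc1 differed by -2.52 to -2.61, with adjusted p between 7.28e-05 and 0.000602. For Slc1a1, Serpinb1a, Slc22a12, Anxa13, Nrxn2, Gucy2c and Spatc1, controls 1 and 2 were at or near the NEMO knockout level and control 3 near the KEAP1 level. Acpp, a phosphatase, did not follow this: control 1 was at 4.61, control 3 at 3.17 and double knockout 3 at 3.40, against 5.66 to 6.15 in KEAP1 knockouts.

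**Figure D2:**
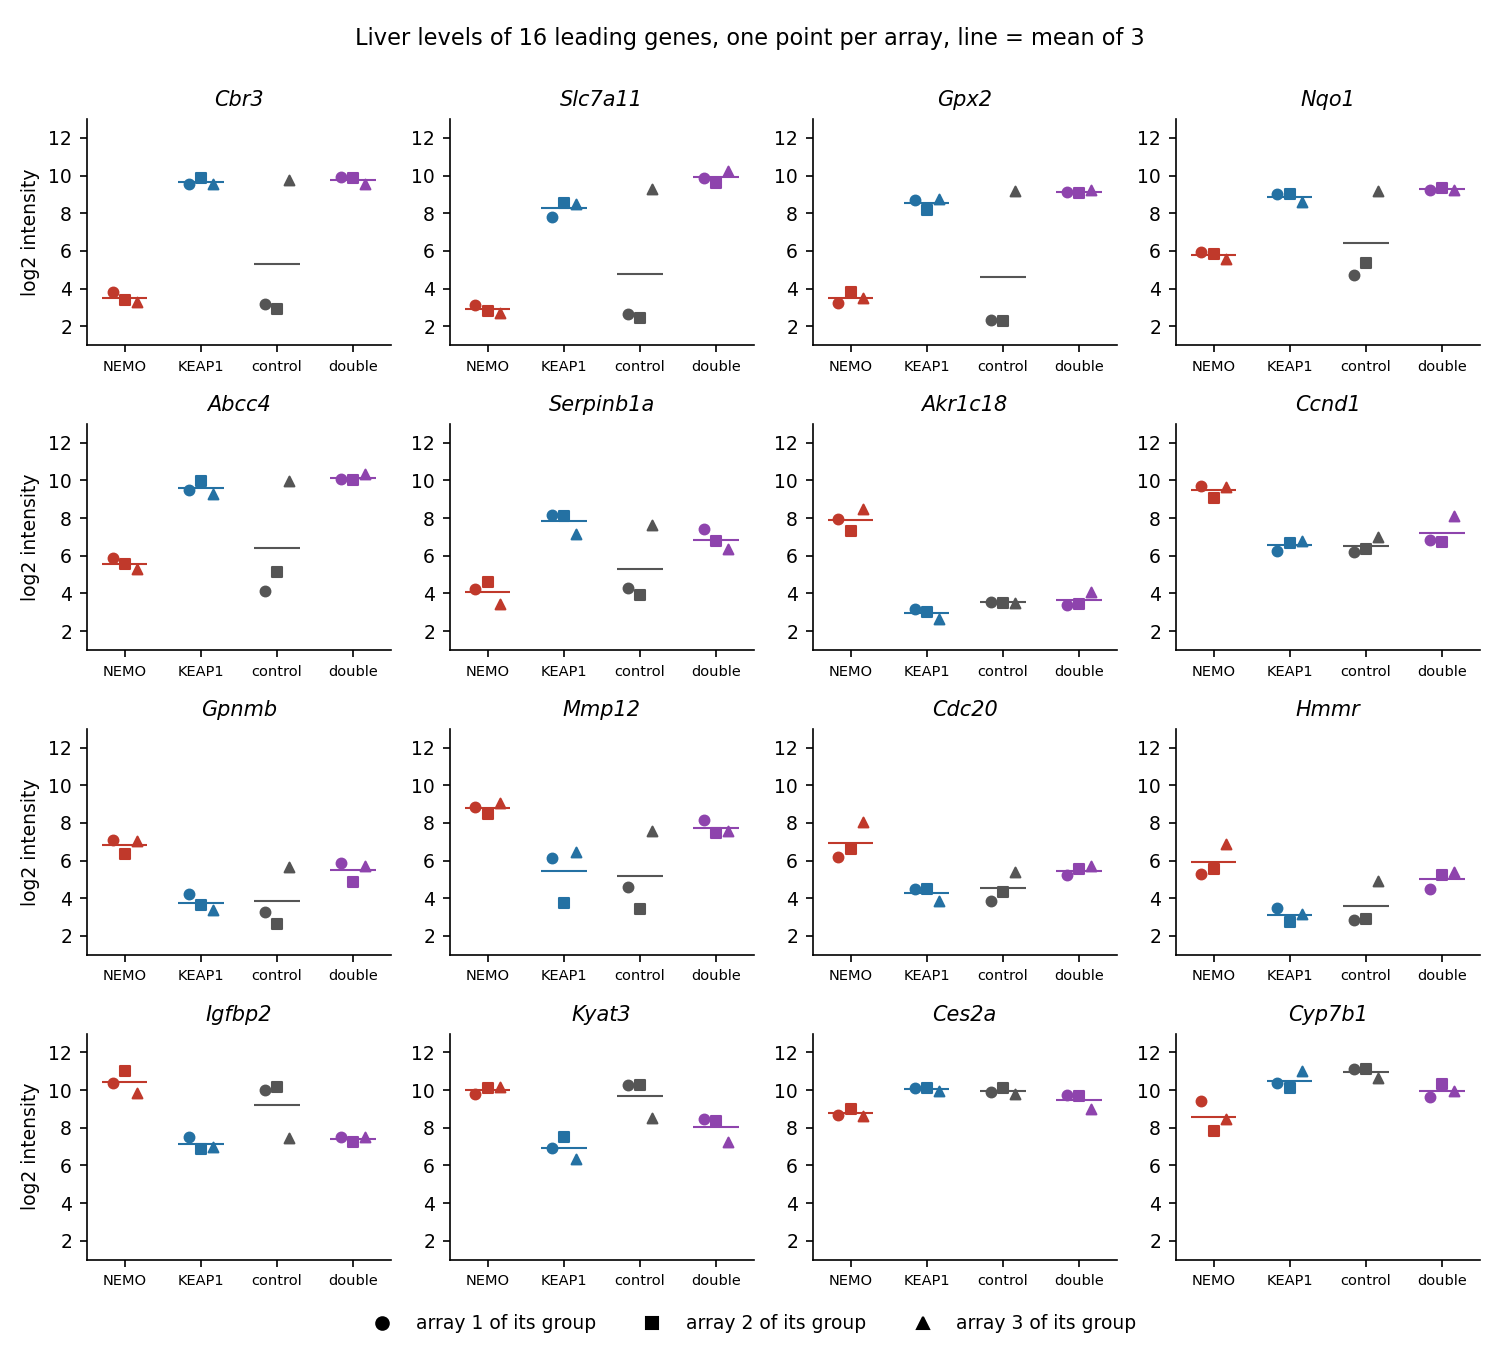
Log2 intensity (y axis) of 16 genes on each liver array, by genotype (x axis), with marker shape for the array number and a line at each group's mean of 3. For Cbr3, Slc7a11, Gpx2, Nqo1 and Abcc4 the control array 3 lies at or above the KEAP1 knockout level and controls 1 and 2 lie low. For Akr1c18 all controls and double knockouts lie low, and for Igfbp2 the KEAP1 knockouts lie below controls 1 and 2.

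On the other side, Akr1c18, a steroid dehydrogenase that breaks down progesterone, had the largest difference. It was at 7.97, 7.32 and 8.48 in NEMO knockout livers and 3.19, 2.99 and 2.66 in KEAP1 knockout livers. This was 31.5-fold (4.98 ± 0.27, adjusted p = 3.07e-05). All 3 controls (3.51 to 3.56) and all double knockouts (3.39 to 4.10) lay low with the KEAP1 knockouts. Gldn, a cell adhesion protein known from nerve, had the same shape, at 6.08, 5.29 and 5.62 against 2.94, 2.74 and 2.81 (2.83 ± 0.20, adjusted p = 0.000147), with double knockouts at 2.53 to 2.79. Gria3, a glutamate receptor subunit, was at 6.53, 5.51 and 6.50 against 3.43, 3.45 and 3.32 (2.78 ± 0.25, adjusted p = 0.000525). D17H6S56E-5 differed by 3.27 ± 0.43 (adjusted p = 0.00324), and on NEMO knockout 3 it stood at 10.08, against 8.44 and 8.28 on NEMO knockouts 1 and 2.

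Cell division genes formed the largest block on the NEMO side. Of 33 measured mitosis and spindle genes, 29 were higher in NEMO knockout livers and 0 lower, and their median difference was 1.91, against -0.01 over all genes. Ccnb2, a mitotic cyclin, was at 7.88, 7.41 and 9.02 without NEMO and 5.51, 5.05 and 5.55 without KEAP1 (2.73 ± 0.35, adjusted p = 0.00276). Cdc20, which activates the anaphase-promoting complex, was at 6.18, 6.60 and 8.04 against 4.47, 4.49 and 3.84 (2.67 ± 0.42, adjusted p = 0.00705). Ect2, needed for cytokinesis, differed by 2.73 ± 0.36 and Ckap2, a spindle protein, by 2.93 ± 0.35. Hmmr, a spindle and hyaluronan-binding protein outside the list, differed by 2.77 ± 0.37.

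NEMO knockout 3 was the highest array for this block. The mean of the 33 genes lay 1.79 above the mean of the 6 arrays on NEMO knockout 3, against 0.44 and 0.52 on NEMO knockouts 1 and 2. On the KEAP1 knockouts it lay between -0.82 and -1.03. The count was 31 without NEMO knockout 3. It was 18, 16 and 20 without KEAP1 knockouts 1, 2 and 3. Without KEAP1 knockout 1 or 2 fewer genes were also called over the whole array. The double knockouts lay between the single knockouts for Cdc20, at 5.21, 5.53 and 5.69, and controls 1 and 2 were at 3.87 and 4.32.

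Many genes of this block are read through a CHR element (TTTGAA) that often sits near a CCAAT box in the proximal promoter. In the 250 bases before the start, TTTGAA on either strand was present in 12 of the 25 called mitosis genes with a window (48%), and in 15.7% of the 14749 genes. CCAAT was present in 76% against 39.1%, and both in 40% against 5.71%. These shares describe the list and were not tested. The 4 windows below hold TTTGAA, in capitals, on the gene strand (Kif11 has it on the opposite strand), and they were chosen after values were seen. They are chr4:118437344-118437403 (Cdc20, minus strand), chr19:37376322-37376381 (Kif11, plus), chr7:80294416-80294475 (Prc1, plus) and chr11:99024336-99024395 (Top2a, minus).
Cdc20: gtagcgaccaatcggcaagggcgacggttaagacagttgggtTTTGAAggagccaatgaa
Kif11: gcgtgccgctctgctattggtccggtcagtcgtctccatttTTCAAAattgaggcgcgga
Prc1: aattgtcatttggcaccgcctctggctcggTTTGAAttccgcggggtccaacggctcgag
Top2a: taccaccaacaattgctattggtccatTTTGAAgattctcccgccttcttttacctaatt
Kif11, a spindle motor, differed by 1.81, Prc1, which bundles the central spindle, by 2.13 and Top2a, topoisomerase of dividing cells, by 1.98 on the log2 scale.

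Entry into the cycle was marked by Ccnd1, cyclin D1, at 9.71, 9.07 and 9.67 in NEMO knockout livers and 6.25, 6.66 and 6.78 in KEAP1 knockout livers. The groups lay far apart (2.92 ± 0.19, adjusted p = 9.59e-05), and controls were at 6.20, 6.35 and 6.97. Of 18 G1 genes, 5 were higher and 0 lower. Among them were cell cycle inhibitors as well: Cdkn2c, at 6.35, 6.35 and 6.49 against 5.37, 5.30 and 5.06 (1.15 ± 0.12, adjusted p = 0.00117), and Cdkn1a (0.96 ± 0.13, adjusted p = 0.00396), which p53 induces. Of 22 DNA replication genes, 8 were higher and 0 lower, and all 22 differences were above 0 (median 0.59). Rrm2, the ribonucleotide reductase subunit of S phase, was at 6.62, 6.63 and 7.52 against 5.54, 5.63 and 5.57 (1.34 ± 0.22, adjusted p = 0.00889). This count was 4, 2 and 2 without KEAP1 knockouts 1, 2 and 3 and 3 without NEMO knockout 3. Uhrf1 and Mcm5, both called, lost that call in 5 and 3 of the 6 fits with an array left out (adjusted p up to 0.135 and 0.0778). The G1 count was 3 without KEAP1 knockout 1.

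Stress and damage transcripts lay on the NEMO side too. Of 16 p53 targets, 6 were higher and 0 lower, with a median of 0.42. This count was 4 without KEAP1 knockout 1, KEAP1 knockout 2, NEMO knockout 1 or NEMO knockout 3. Cdkn1a, also in the G1 list, was among these genes, and so was Gtse1 (1.23 ± 0.28, adjusted p = 0.0368). Gtse1 lost its call in 4 of the 6 fits with an array left out (adjusted p up to 0.111). Btg2, an antiproliferative gene, was at 6.43, 6.84 and 6.84 against 5.22, 4.87 and 5.71 (1.44 ± 0.21, adjusted p = 0.00510). Eda2r, a p53-induced TNF receptor family member, was at 5.06, 4.63 and 4.54 against 3.62, 3.47 and 3.10 (1.35 ± 0.19, adjusted p = 0.00470), with controls at 3.08 to 3.39. Of 15 AP-1 and immediate early factors, 6 were higher and 0 lower. Jun was at 7.72, 8.15 and 8.08 against 6.12, 6.36 and 6.82 (1.55 ± 0.18, adjusted p = 0.00190), and the double knockouts were at 7.41, 7.22 and 8.00. Egr1 differed by 1.81 ± 0.36 (adjusted p = 0.0200) and lost its call in 4 of the 6 fits with an array left out (adjusted p up to 0.0801). The AP-1 count was 3 without KEAP1 knockout 1, KEAP1 knockout 2 or NEMO knockout 3.

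The pathway that NEMO serves gave few calls. Of 23 NF-kB targets, 1 was higher and 1 lower, 4.35% each, close to the 3.34% and 2.69% of all genes. Vcam1, an adhesion molecule of endothelium, was at 7.91, 7.76 and 7.89 without NEMO and 6.97, 6.62 and 7.37 without KEAP1 (0.86 ± 0.17, adjusted p = 0.0193). Sod2, mitochondrial superoxide dismutase, was at 9.60, 9.74 and 9.55 against 9.91, 10.03 and 9.94 (-0.33 ± 0.08, adjusted p = 0.0447). Both calls were lost without NEMO knockout 1, NEMO knockout 3 or KEAP1 knockout 1 (adjusted p up to 0.0713 and 0.152). Of 13 IKK and NF-kB subunits, Ikbkg alone was called. Whole liver also holds the NF-kB targets of its other cells.

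Of 17 TNF and death receptor genes, 2 were higher (11.8%, against 3.34% of all genes) and 0 lower. Tnfrsf12a, the receptor of TWEAK, was at 6.75, 6.48 and 7.58 against 5.32, 5.08 and 6.12 (1.43 ± 0.32, adjusted p = 0.0332). Tnfrsf10b, the mouse TRAIL receptor, was at 5.42, 5.72 and 6.28 against 4.74, 4.67 and 4.97 (1.01 ± 0.21, adjusted p = 0.0245). Both calls were lost without KEAP1 knockout 1 or 2, among others (adjusted p up to 0.119 and 0.0929). Of 18 interferon-stimulated genes and 20 acute phase proteins, 0 were called in either direction by limma, against 6.04% of all genes. At that share lists this short hold few or no calls. At an unadjusted p under 0.05, 3656 of all genes passed. KEAP1 knockout 3 stood apart for inflammatory transcripts: Saa3 was at 7.44 there against 5.32 and 4.52 on the other KEAP1 knockouts, Cxcl1 at 8.18 against 5.60 and 5.00, and the neutrophil marker S100a8 at 5.34 against 3.62 and 3.58. Without KEAP1 knockout 3, 2 acute phase proteins were higher and 0 lower. Without KEAP1 knockout 2, 6 were lower and 0 higher, and 3 were lower with each array centred on its median, so the count of 0 rests on the arrays and scaling used. The interferon list gave 0 calls without any one KEAP1 knockout and 1 lower without NEMO knockout 1 or 2.

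**Figure D3:**
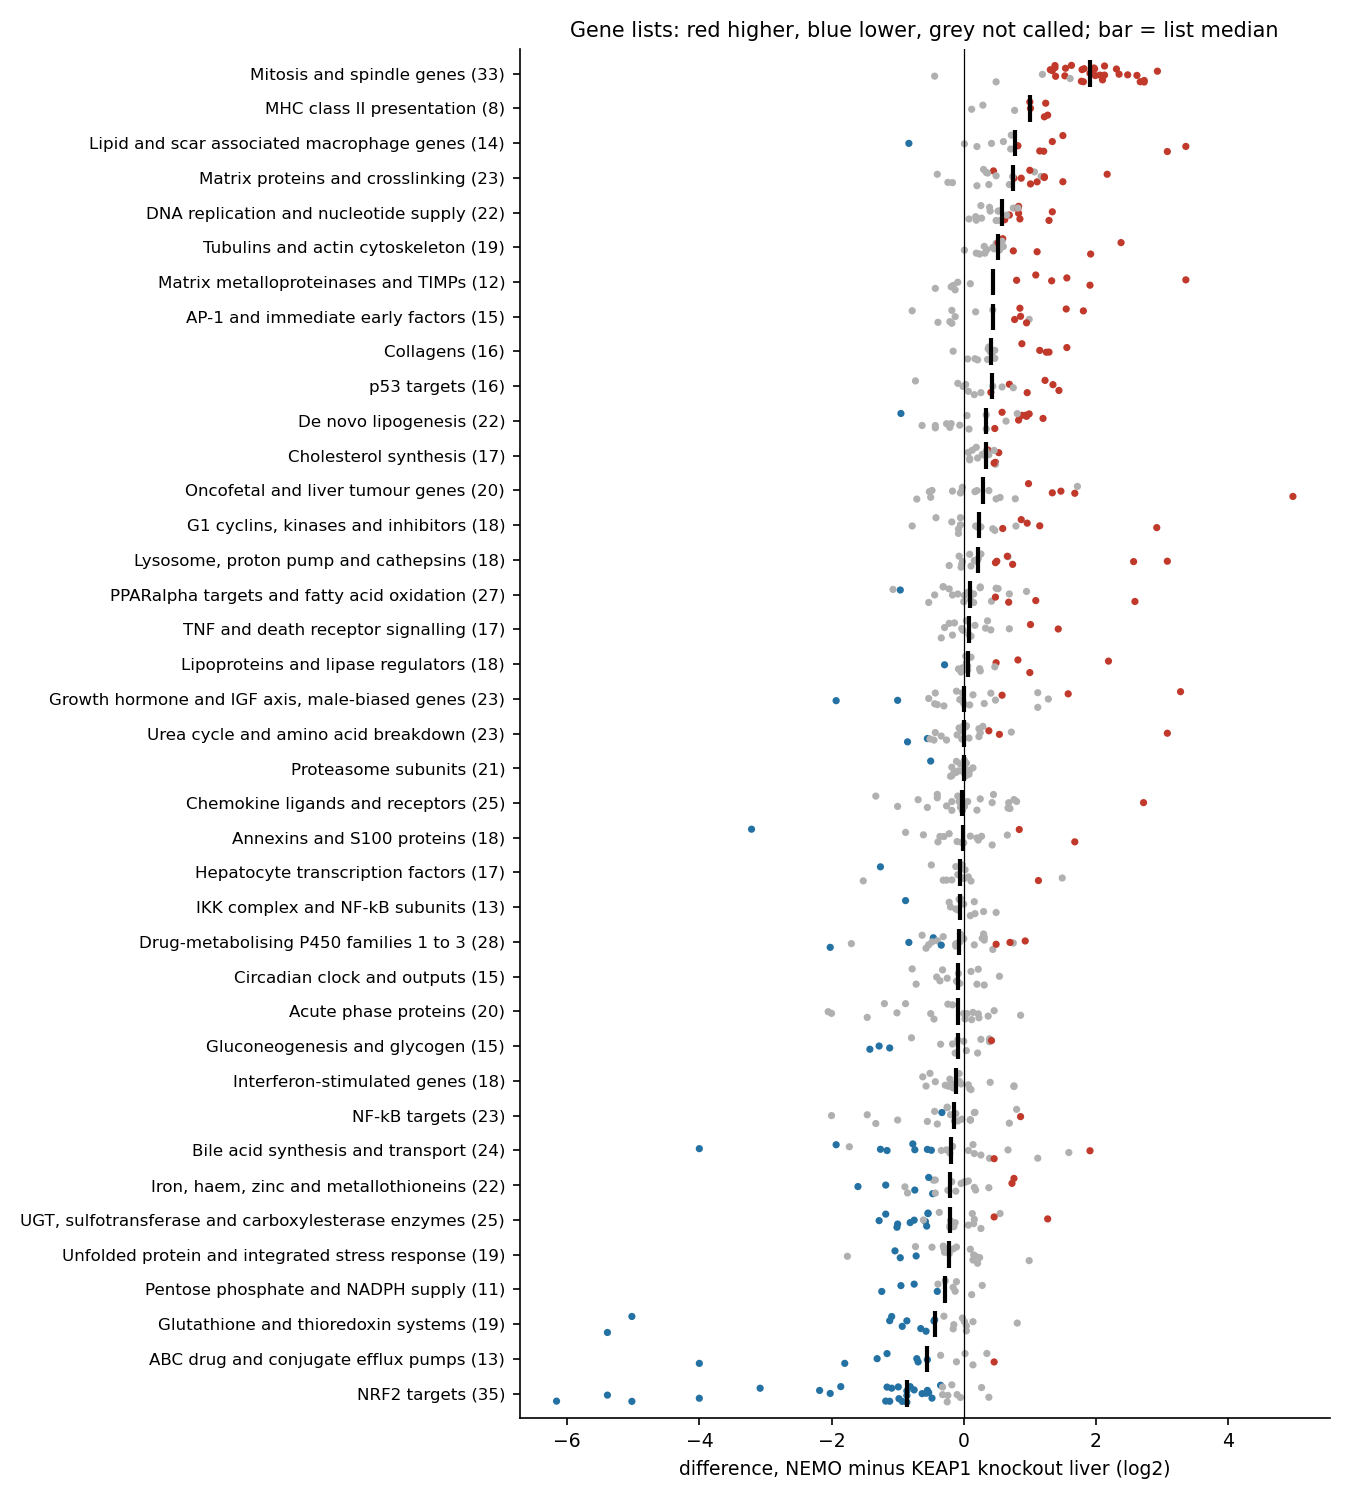
Log2 differences (x axis, NEMO minus KEAP1 knockout liver) of the members of 39 gene lists (y axis, number measured in brackets), with red for genes called higher, blue for genes called lower and a bar at each list's median. Mitosis genes have the highest median, 1.91, and NRF2 targets the lowest, -0.86, while the NF-kB targets straddle 0.

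Scar tissue genes were higher without NEMO than without KEAP1. Of 16 collagens, 5 were higher and 0 lower (median 0.42), and of 23 matrix and crosslinking genes 10 were higher and 0 lower (median 0.74). Col1a1, the main fibrillar collagen chain, was at 8.33, 7.89 and 8.81 against 6.74, 6.61 and 6.99 (1.56 ± 0.21, adjusted p = 0.00336). Controls 1 and 2 were at 5.38 and 5.52, below both knockouts, and control 3 was at 7.70. Lum, a collagen-binding proteoglycan, was at 7.97, 6.73 and 8.14 against 5.56, 4.90 and 5.86 (2.17 ± 0.36, adjusted p = 0.00945). Lox, which crosslinks collagen, was at 4.92, 4.33 and 5.34 against 3.35, 3.51 and 3.23 (1.50 ± 0.24, adjusted p = 0.00768). Pdgfa and Thbs2 differed by 1.22 each, with SE of 0.17 and 0.19.

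Stellate cell and fibroblast markers moved with these genes. Of 19 such markers, 9 were higher and 0 lower (median 0.76), and their mean level was 6.94, 6.73 and 7.11 in NEMO knockouts against 6.17, 5.93 and 6.32 in KEAP1 knockouts. Cygb, a globin of quiescent and activated stellate cells, was at 7.98, 7.68 and 7.96 against 6.23, 6.34 and 6.53 (1.51 ± 0.12, adjusted p = 0.000278). Some of these markers, such as Lum and Lox, are themselves matrix genes, and the part of cell number in the matrix result was not tested. The collagen count was 1 without KEAP1 knockout 1 or 2, and 2 without NEMO knockout 1 or 3. The stellate count was 5 without KEAP1 knockout 1, KEAP1 knockout 2 or NEMO knockout 3. With all 12 liver arrays in the fit these counts fell to 0 collagens, 1 matrix gene and 1 stellate marker. With control 3 and double knockout 3 taken out they were 6, 11 and 9.

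Matrix-degrading enzymes were high in the same livers. Of 12 metalloproteinases and their inhibitors, 6 were higher and 0 lower. Mmp12, the macrophage elastase, was at 8.87, 8.49 and 9.07 without NEMO and 6.12, 3.77 and 6.45 without KEAP1, a 10.3-fold difference with a wide spread on the KEAP1 side (3.36 ± 0.58, adjusted p = 0.0112). The double knockouts stayed high, at 8.15, 7.45 and 7.58. Mmp13, a collagenase, was at 6.13, 5.88 and 6.63 against 4.42, 3.75 and 4.75 (1.91 ± 0.27, adjusted p = 0.00440). Mmp2, a gelatinase of stellate cells, differed by 1.56 ± 0.22 and Mmp14, its membrane activator, by 1.33 ± 0.13. The count was 4 without any one array other than NEMO knockout 2.

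Genes of lipid-loaded and scar-associated macrophages were higher on the NEMO side in 7 of 14 cases, with 1, Cd36, lower (median 0.77). Gpnmb, a lysosomal glycoprotein of such macrophages, was at 7.09, 6.36 and 7.02 against 4.21, 3.64 and 3.39 (3.08 ± 0.25, adjusted p = 0.000290). Atp6v0d2, a proton pump subunit of the macrophage lysosome, was at 6.77, 6.55 and 6.60 against 4.52, 4.16 and 3.53 (2.57 ± 0.22, adjusted p = 0.000427). Cd63 and Lgals3 differed by 1.50 ± 0.32 and 1.34 ± 0.28 but lost their calls without KEAP1 knockout 1, NEMO knockout 1 or NEMO knockout 3 (adjusted p up to 0.0915 and 0.0892). Of 18 lysosomal genes, 6 were higher and 0 lower, 2 of them the genes just described, and the count was 3 without NEMO knockout 1 or 3.

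Of 20 monocyte and recruited macrophage markers, 3 were higher and 0 lower (median 0.50): Gpnmb, Clec7a (1.47 ± 0.23, adjusted p = 0.00680), the beta-glucan receptor, and Cd68 (0.82 ± 0.19, adjusted p = 0.0383), which lost its call in 4 of the 6 fits with an array left out (adjusted p up to 0.115). Their mean level was 6.96, 6.35 and 6.68 against 6.33, 5.54 and 6.39, so the groups overlapped. Of 12 Kupffer cell markers, 2 were higher and 2 lower (16.7% each, against 3.34% and 2.69% of all genes). Marco (0.88 ± 0.20, adjusted p = 0.0372), a scavenger receptor, and Cd163 (-1.56 ± 0.38, adjusted p = 0.0470), the haemoglobin receptor, went opposite ways, and both calls were lost in at least 4 of the 6 fits with an array left out (adjusted p up to 0.116 and 0.155). The defining Kupffer cell gene Clec4f was level, at 8.69, 9.07 and 8.93 against 9.28, 8.59 and 8.94 (-0.04 ± 0.17, adjusted p = 0.938).

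Of 8 MHC class II genes, 5 were higher and 0 lower (median 1.00). H2-Aa was at 9.95, 8.79 and 9.23 against 8.13, 7.50 and 8.54 (1.27 ± 0.31, adjusted p = 0.0468), and NEMO knockout 1 was the highest array. The count was 0 without KEAP1 knockout 1, KEAP1 knockout 2 or NEMO knockout 3, and 2 without NEMO knockout 1. Of 25 chemokine ligands and receptors, only Cxcl14 was called (4% higher, against 3.34% of all genes). It was at 7.69, 6.44 and 7.93 against 4.76, 4.25 and 4.90 (2.72 ± 0.35, adjusted p = 0.00285). Of 11 neutrophil, 15 T and natural killer, 13 cholangiocyte and 8 adipocyte markers 0 were called, against 6.04% of all genes. Lists this short hold few or no calls at that share, so these counts say little about the cells. Of 16 sinusoidal endothelial markers 1 was higher (Plvap, 0.57 ± 0.11) and 1 lower (Lyve1, -1.06 ± 0.26), which is 6.25% each. Both calls were lost without KEAP1 knockout 2 or 3, among others (adjusted p up to 0.0626 and 0.154). The mean of 9 hepatocyte markers lay between 11.82 and 11.99 on the 6 arrays, and of these Arg1 alone was called.

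**Figure D4:**
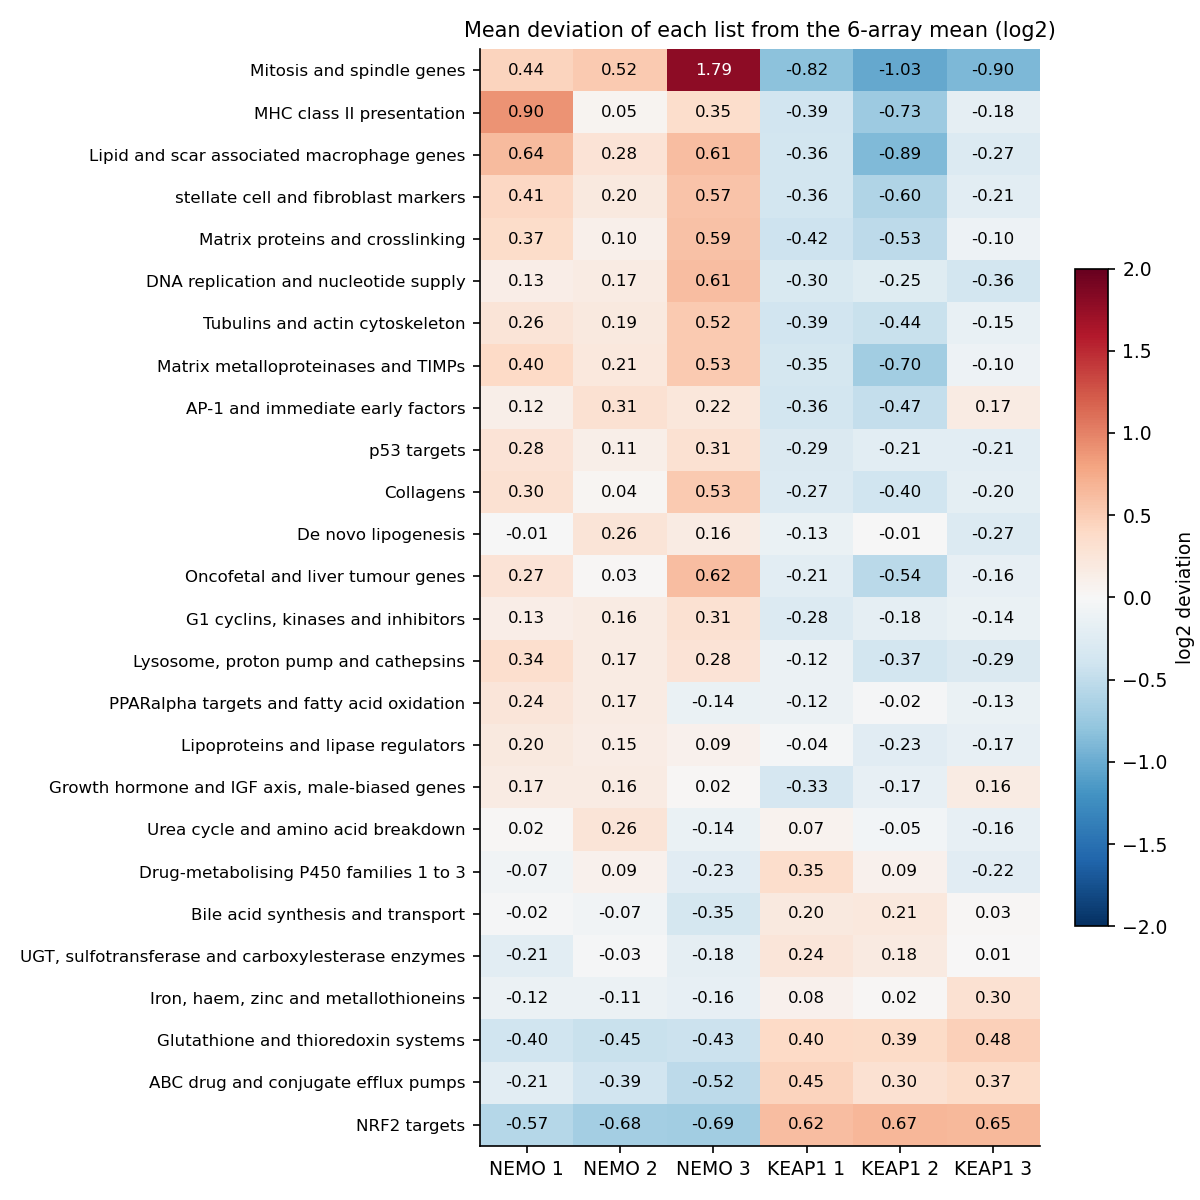
Mean deviation of each list's genes from their mean over the 6 liver arrays, in log2 units, with 1 row for each list that had at least 5 called genes and 1 column per array. The mitosis row reaches 1.79 on NEMO knockout 3 and the NRF2 row is even, between -0.57 and -0.69 on NEMO knockouts and between 0.62 and 0.67 on KEAP1 knockouts.

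Which arrays shared the estimate of the spread mattered for several of these lists. With all 12 liver arrays in the fit, the higher counts were 1 for DNA replication, 2 for G1 genes, 2 for metalloproteinases, 3 for AP-1 factors, 1 for lipid and scar macrophage genes and 0 for MHC class II. With control 3 and double knockout 3 taken out of that fit they were 11, 6, 6, 6, 8 and 5. On the KEAP1 side the glutathione and thioredoxin count was 1 and then 10, and the count of efflux pumps 3 and then 7. The mitosis count was 24 and then 31.

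Genes linked to liver tumours and the cytoskeleton joined the NEMO side. Of 20 oncofetal and tumour genes, 5 were higher and 0 lower. After Akr1c18, these included Robo1, a guidance receptor, at 7.84, 7.53 and 7.81 against 6.28, 6.35 and 6.15 (1.47 ± 0.11, adjusted p = 0.000246). Igf2bp3, a fetal RNA-binding protein, was at 4.76, 5.04 and 5.43 against 3.85, 3.73 and 3.64 (1.34 ± 0.18, adjusted p = 0.00373). Afp, the classical fetal marker, was dim on all arrays and not called, at 4.13, 3.89 and 3.96 against 3.81, 3.16 and 3.36 (0.55 ± 0.18, adjusted p = 0.135). It was added after its values were seen. The oncofetal count was 3 without KEAP1 knockout 1 or 2. Of 19 tubulin and actin genes, 6 were higher and 0 lower. Tubb6 was at 7.37, 7.39 and 8.57 against 5.13, 4.90 and 6.16 (2.38 ± 0.38, adjusted p = 0.00793), and Tuba8 differed by 1.92 ± 0.16 (adjusted p = 0.000381).

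A direct contrast does not say which genotype departs from the control, so the controls were placed beside it. For 514 of the 629 genes higher without NEMO (81.7%), the mean of controls 1 and 2 lay nearer the KEAP1 knockouts. For 296 of the 507 genes lower without NEMO (58.4%) it lay nearer the NEMO knockouts. With control 3 included the shares were 85.9% nearer KEAP1 for the higher genes and 53.3% nearer KEAP1 for the lower ones. These placements are descriptions with no test. The double knockouts 1 and 2 lay nearer the KEAP1 knockouts for 473 higher (75.2%) and 433 lower genes (85.4%). With double knockout 3 included these became 58.3% and 78.5%.

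Some genes on the NEMO side were lower in KEAP1 knockouts than in controls 1 and 2. Igfbp2, an IGF-binding protein secreted by hepatocytes, was at 10.37, 11.03 and 9.85 in NEMO knockouts and 7.53, 6.88 and 6.99 in KEAP1 knockouts (3.28 ± 0.27, adjusted p = 0.000338). Controls 1 and 2 sat with the NEMO knockouts at 10.03 and 10.14. Control 3 and the double knockouts sat with the KEAP1 knockouts, at 7.45 and 7.26 to 7.52. Kyat3, a kynurenine aminotransferase, was at 9.81, 10.12 and 10.15 against 6.95, 7.51 and 6.36 (3.08 ± 0.24, adjusted p = 0.000278). Controls 1 and 2 were at 10.27 and 10.28 and control 3 at 8.53. Double knockouts 1 and 2 were at 8.45 and 8.37, and double knockout 3 at 7.24. Foxa3, a hepatocyte transcription factor, was at 7.57, 7.53 and 7.83 against 6.40, 6.30 and 6.85 (1.13 ± 0.15, adjusted p = 0.00372). Controls 1 and 2 were at 7.85 and 7.77, and control 3 at 6.69, within the KEAP1 knockout range.

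Some genes of fat synthesis also had controls 1 and 2 near the NEMO knockouts. Of 22 genes of de novo lipogenesis, 8 were higher in NEMO than in KEAP1 knockout livers and 1, Me1, was lower (median 0.34). Elovl5, which lengthens polyunsaturated fatty acids, was at 11.53, 11.67 and 11.40 against 10.49, 10.38 and 10.12 (1.20 ± 0.11, adjusted p = 0.000525), with controls 1 and 2 at 11.43 and 11.22. Fasn, fatty acid synthase, was at 10.00, 10.45 and 10.61 against 9.53, 9.42 and 9.13 (0.99 ± 0.16, adjusted p = 0.00850), with controls 1 and 2 at 10.09 and 10.05. Elovl6, its elongase, differed by 0.95 ± 0.11 (adjusted p = 0.00150). All 17 cholesterol synthesis genes had differences above 0, but only 4 were called, none of them by more than 0.53. Their mean level in controls 1 and 2 was 8.73 and 8.85, at the level of the KEAP1 knockouts (8.77 to 8.86) and below the NEMO knockouts (8.97 to 9.19). That count was 0 without KEAP1 knockout 2, KEAP1 knockout 3, NEMO knockout 2 or NEMO knockout 3, and after centring on the median.

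Of 27 PPARalpha targets and fatty acid oxidation genes, 4 were higher (14.8%, against 3.34% of all genes) and 1 lower (3.7%, against 2.69%). Cyp4a14, a fatty acid hydroxylase, was at 10.03, 10.98 and 9.23 against 8.05, 7.61 and 6.82 (2.59 ± 0.42, adjusted p = 0.00851), with controls 1 and 2 between at 9.02 and 8.91. Acot2, a mitochondrial thioesterase, was at 9.52, 9.35 and 9.58 against 8.32, 8.41 and 8.44 (1.09 ± 0.09, adjusted p = 0.000278), with controls below both at 7.36, 7.99 and 8.26. Of 18 lipoprotein genes, 4 were higher (22.2%) and 1 lower (5.56%). Apoa4, an apolipoprotein that tracks liver fat, was at 12.02, 10.49 and 11.48 against 9.98, 8.69 and 8.77 (2.19 ± 0.41, adjusted p = 0.0168), and lost its call without KEAP1 knockout 2 or NEMO knockout 3 (adjusted p up to 0.0702), where 2 lipoprotein genes stayed higher. Apom, the carrier of sphingosine-1-phosphate, differed by 1.00 ± 0.16 (adjusted p = 0.00699).

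Called bile acid and phase II genes lay mostly on the KEAP1 side. Of 24 bile acid genes, 8 were lower and 2 higher without NEMO, but 3 of the 8 were the efflux pumps Abcc2, Abcc3 and Abcc4, and 5 were lower without KEAP1 knockout 1. Cyp7b1, which hydroxylates oxysterols in the alternative bile acid pathway, was at 9.44, 7.84 and 8.45 without NEMO and 10.40, 10.11 and 11.03 without KEAP1 (-1.93 ± 0.37, adjusted p = 0.0170). Controls 1 and 2 were both at 11.10 and control 3 at 10.66, near the KEAP1 knockouts, and the call was lost without KEAP1 knockout 1 or NEMO knockout 3 (adjusted p up to 0.0646). Nr0b2, the repressor SHP, was at 6.81, 6.69 and 5.91 against 7.79, 7.80 and 7.59 (-1.26 ± 0.21, adjusted p = 0.00978). Slc10a2, the bile acid importer of bile duct and gut, was higher without NEMO, at 8.00, 8.19 and 8.36 against 6.69, 5.75 and 6.38 (1.91 ± 0.21, adjusted p = 0.00150). Cyp7a1, the rate-limiting enzyme of the classical pathway, was at 9.66, 9.01 and 9.21 against 7.98, 8.80 and 6.34 and did not pass the test (1.59 ± 0.50, adjusted p = 0.115). It was added after its values were seen.

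Of 25 UGT, sulfotransferase and carboxylesterase genes, 10 were lower and 2 higher without NEMO. Ces2a, a carboxylesterase, was at 8.66, 9.02 and 8.63 against 10.13, 10.10 and 9.93 (-1.28 ± 0.12, adjusted p = 0.000525), with controls at 9.88, 10.09 and 9.81. Ugt2b35 and Ugt2b5, glucuronidating enzymes, differed by -1.18 ± 0.07 (adjusted p = 4.94e-05) and -1.01 ± 0.07 (adjusted p = 0.000120). For these, controls 1 and 2 were nearer the NEMO knockouts, at 9.0 and 9.62 for Ugt2b35 and at 10.45 and 10.59 for Ugt2b5. Sult1a1 was higher without NEMO (1.27 ± 0.20, adjusted p = 0.00795). Members of the UGT2B and carboxylesterase families share sequence, so probe sets may read more than 1 of them. Of 28 drug-metabolising P450 genes, 4 were lower (14.3%, against 2.69% of all genes) and 3 higher (10.7%, against 3.34%). After Cyp2a5 none of those called differed by more than 0.93 in size. The lower count was 1 without KEAP1 knockout 1 and 2 without KEAP1 knockout 2 or NEMO knockout 3, and the higher count was 0 without NEMO knockout 2 and 1 without KEAP1 knockout 1, KEAP1 knockout 3, NEMO knockout 1 or NEMO knockout 3.

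Glycogen and haem genes closed the metabolic picture. Ugp2, which makes UDP-glucose, was at 9.59, 9.50 and 9.61 without NEMO and 10.82, 10.88 and 10.84 without KEAP1 (-1.28 ± 0.07, adjusted p = 3.07e-05). Gbe1, the glycogen branching enzyme, differed by -1.12 ± 0.13 (adjusted p = 0.00173) and Ppp1r3c, a glycogen targeting subunit, by -1.42 ± 0.17 (adjusted p = 0.00184). They were the 3 lower genes of 15 in the gluconeogenesis and glycogen list, where 1 gene, Pkm, pyruvate kinase of dividing cells, was higher (0.42 ± 0.09, adjusted p = 0.0363). Pkm lost its call in each of the 6 fits with an array left out (adjusted p up to 0.125). Controls 1 and 2 were at 9.72 and 9.68 for Ugp2 and at 9.08 and 9.02 for Gbe1, at the NEMO knockout level. Of 22 iron, haem and zinc genes, 5 were lower (22.7%, against 2.69% of all genes) and 2 higher (9.09%, against 3.34%). Blvrb, a biliverdin and flavin reductase, was at 10.22, 9.70 and 9.71 against 11.52, 11.44 and 11.47 (-1.60 ± 0.13, adjusted p = 0.000338). Slc39a4, a zinc importer, was at 7.85, 8.23 and 8.27 against 9.39, 9.12 and 9.40 (-1.18 ± 0.13, adjusted p = 0.00135), with controls between at 8.61 to 8.95.

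Of 19 genes of the unfolded protein and integrated stress response, 3 were lower (15.8%, against 2.69% of all genes) and 0 higher: Trib3 (-1.04 ± 0.15, adjusted p = 0.00504), Dnajb9 (-0.72 ± 0.08, adjusted p = 0.00176) and Fgf21 (-0.96 ± 0.22, adjusted p = 0.0369). Fgf21 lost its call in 5 of the 6 fits with an array left out (adjusted p up to 0.107). Of 21 proteasome subunits only Psmb5, a catalytic subunit, was called (-0.50 ± 0.09, adjusted p = 0.0117; 0.0524 without KEAP1 knockout 1). Of 15 clock genes 0 were called by limma, against 6.04% of all genes. The remaining lists gave 2 higher and 1 lower of 18 annexin and S100 genes and 3 and 2 of 23 growth hormone and IGF genes. Of 17 hepatocyte transcription factors 1 was higher and 1 lower (5.88% each). Of 10 B and plasma cell markers Sdc1 alone was called, and of 4 erythroid markers Alas2 alone, both higher. Over all genes 3.34% were higher and 2.69% lower, so single calls in lists this short say little. Alas2 lost its call in 4 of the 6 fits with an array left out (adjusted p up to 0.143). Of 23 urea cycle and amino acid genes, 2 were lower (8.70%) and 3 higher (13%, against 3.34% of all genes). Tdo2, tryptophan dioxygenase, and Arg1, arginase, were lower and Kyat3, Cbs and Nags higher, the last of these named after its value was seen. Tdo2 (-0.85 ± 0.18, adjusted p = 0.0261) lost its call without KEAP1 knockout 1 or 2, and Cbs (0.54 ± 0.12, adjusted p = 0.0332) without any one KEAP1 knockout (adjusted p up to 0.0943 and 0.123). Of the higher genes of this list, 1 was called without any one KEAP1 knockout.

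The same contrast was then fitted in cultured hepatocytes of the same genotypes. It called 1464 genes (7.78%), 757 higher (4.02%) and 707 lower (3.76%) in NEMO knockout hepatocytes. With each array centred on its median the split was 590 higher and 1301 lower. Of the 629 genes higher in NEMO knockout liver, 387 were also called higher in hepatocytes, which is 61.5% of the liver calls and 51.1% of the hepatocyte calls. Of the 507 lower genes, 330 were shared, 65.1% and 46.7% of each list. A count of 0 genes was called in opposite directions. Across the 18820 genes the differences in liver and hepatocytes had r = 0.73, which is a description since genes are not independent. The labels do not say whether livers and hepatocytes came from the same animals.

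Mitosis genes were called in hepatocytes as in liver, 32 of 33 higher with a median of 2.50. Of the 35 NRF2 targets 24 were lower and 1 higher, with a median of -0.72. Cbr3 differed by -5.88, Gpx2 by -4.55, Abcc4 by -4.35 and Ccnd1 by 3.72 in hepatocytes, with adjusted p from 1.83e-09 to 0.000143. Of the 19 stellate markers 10 were higher in NEMO knockout hepatocytes, so markers of another liver cell type were among the hepatocyte calls. The mean level of these markers was 5.54 to 5.81 in NEMO and 4.72 to 4.89 in KEAP1 knockout hepatocytes, below the liver arrays. The sinusoidal marker Stab2 was at 8.16, 7.75 and 7.99 in NEMO and 7.66, 7.67 and 7.21 in KEAP1 knockout hepatocytes. Whether other liver cells were in the cultures, and their part in the hepatocyte result, was not tested.

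The difference between liver and hepatocytes was itself tested in 1 fit of the 12 single knockout arrays. It called 0 of 18820 genes by limma, with 1122 genes at an unadjusted p under 0.05 and a smallest adjusted p of 0.153. The largest gaps were for Slc7a11, which differed by -5.39 in liver and -2.58 in hepatocytes (gap -2.81 ± 0.42, adjusted p = 0.153), and Akr1c18, at 4.98 and 2.19 (gap 2.79 ± 0.54, adjusted p = 0.249). Klf6, an immediate early factor, went the other way, at 0.95 and 2.48 (gap -1.53, adjusted p = 0.249). With 3 arrays per group these gaps did not pass the test, and that does not show that the contrast is the same in liver and in culture.

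**Figure D5:**
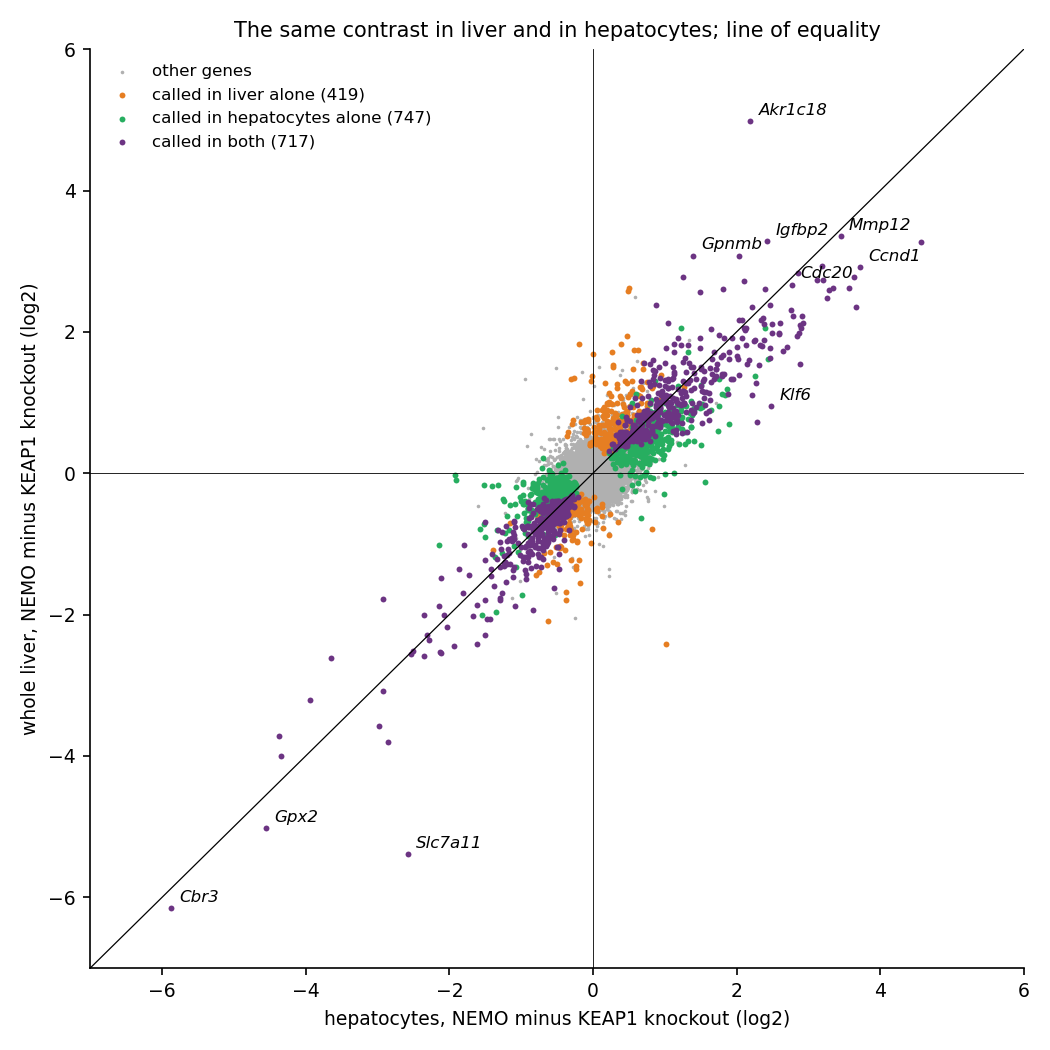
Each point is a gene, with its log2 difference, NEMO minus KEAP1 knockout, in cultured hepatocytes (x axis) and in whole liver (y axis). Purple marks the 717 genes called in both, orange those called in liver alone and green those called in hepatocytes alone, and the diagonal is equality. Cbr3 and Gpx2 lie near the diagonal, while Slc7a11 and Akr1c18 lie further from 0 in liver.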

How the data were processed

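RNA of 24 samples was hybridised to 1-colour Affymetrix arrays. The authors deposited log2 values from RMA, as the submitters' processing notes name it. The RMA version and whether it ran on all arrays at once were not given in the sources used here. Precision is limited by the 3 arrays in each group. No scan date or slide was among the files, so no batch was tested. The sample titles carry a code with the letter F on all KEAP1 and G on all NEMO knockout livers. The number after the letter follows the replicate number. What the code means is not stated, and an effect tied to its letter could not be told apart from genotype. Of 35556 probe sets, 21218 had 1 gene symbol in the platform annotation, 1881 several and 12457 none. The brightest probe set stood for each of 1386 genes with several, which gave 18820 genes without a filter on low values.

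The 6 liver arrays alone were fitted with limma 3.58.1 in R 4.3.3 (lmFit, eBayes with an intensity trend), two-sided, after the code was tested on simulated data. The p-values measure the spread between these samples. The named genes were Ikbkg, Keap1 and Nfe2l2 and the 15 largest called differences each way. Of 50 lists, the 4 largest called members were also named, or the 2 largest where fewer than 2 were called. Any other is marked in the text, apart from Abcb4 and Cd36, called against their lists, and the cell markers Clec4f and Stab2. The comparison and the lists were chosen with earlier results of these data known. Promoter windows are from RefSeq, build GRCm38.p6. Alternatives covered the arrays in the fit, variance moderation, a low-value filter (level 4 on 3 arrays), probe set choice, normalization, centring, a replicate block and each array left out.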

Additional observations from a re-analysis of the deposited data

How the results depend on the processing

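No called gene changed sign under any alternative. The liver count of 1136 became 506 with all 12 liver arrays in the fit, and 1410 when control 3 and double knockout 3 were left out of that fit, an alternative added with the data in view. It ran from 590 to 956 with an array left out and from 804 to 1270 under the other alternatives. The hepatocyte count of 1464 became 936 without the intensity trend and ran from 963 to 1199 with an array left out. The tissue difference stayed at 0 except with an array left out, where it ran from 0 to 5. Of 139 named called genes, 93 kept the call without any one array and 64 under all alternatives. The labels do not say whether the replicate number pairs the mice, and the main fit did not pair them. Residuals of same-numbered livers correlated at 0.028, 0.151 and 0.089, and those of differently numbered livers at -0.154 to 0.061. The replicate block gave 1261 calls, 1018 of them shared with the fit without it.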

Other observations

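Cltb, a clathrin light chain, was picked out after its values were seen because its levels fell into separate ranges that did not follow genotype. It was at 5.06, 5.01 and 4.99 in NEMO knockout livers and 7.25, 7.48 and 7.57 in KEAP1 knockout livers, and was called at -2.41 ± 0.11 (adjusted p = 1.38e-05 by limma). The liver controls were at 8.04, 5.44 and 7.46 and the double knockouts at 5.07, 7.48 and 4.69, so both ranges occurred within each of these groups. This small standard error therefore describes the 6 arrays compared, and whether genotype or another difference between the mice sets the level was not tested.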
